A study of Neurospora crassa with 10 samples.

Results

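Aminoacyl-tRNA synthetase genes of *Neurospora crassa* were followed from the dark through 240 min of light. Genes were taken where the gene name in the study's tables of expression levels held the words tRNA synthetase or tRNA ligase, and they were matched by locus number to the deposited values. The rule found 26 of the 9728 genes. Of these, 25 were named for an amino acid and together covered 19 amino acids, all but leucine. The other gene, NCU04410, was named only tRNA ligase, a name also used for the enzyme that rejoins a tRNA after its intron is cut out, and it is described apart. Because the tables at hand were shortened to 1999 rows each, 21 genes came from a table ordered by the level in the dark and 9 from tables ordered by locus number, with 4 genes in both. The dark level of the 21 genes was therefore high by selection, and the 5 genes found only by locus number, NCU00466, NCU00535, NCU00920, NCU00931, and NCU01512, were the 5 with the lowest level in the dark. Genes of the family beyond this selection are described near the end.

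An aminoacyl-tRNA synthetase joins an amino acid to the tRNA that carries its anticodon, and so supplies every ribosome with its substrates. The enzymes fall into 2 classes with unrelated catalytic domains. A fungal cell needs charged tRNA in the cytosol and again in the mitochondrion, and the second set comes either from a separate nuclear gene or from a second product of the same gene. Most cytosolic enzymes are single proteins, whereas the phenylalanyl enzyme of the cytosol is built from alpha and beta subunits.

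Wild type FGSC2489 was grown as mycelium in shaken, dark liquid culture at 25° for 24 hr. White fluorescent light of 1200 lux was then given for 15, 60, 120, or 240 min, and the dark samples were harvested without it. No allele or agent other than light distinguished the groups, and each of the 5 groups had 2 samples, so that all of the light comparisons share the same 2 dark samples. The study describes the replicates as independent, but the sample records do not state separate cultures. Poly(A) RNA was isolated on oligo-dT cellulose in replicate 1 and with a magnetic kit in replicate 2. The replicate number, the isolation method, and the sequencing depth cannot be told apart.

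Levels are in FPKM, fragment numbers scaled to the length of the transcript and to the mapped fragments of the library, a unit that allows levels of different genes to be compared. It does not give the number of reads, and in such bulk samples fewer cells of a kind and less RNA per cell cannot be told apart. Conidial genes were also detected in these mycelial cultures. All 4 examined were higher than the dark in both replicates after 15, 60, and 120 min, and 3 of them after 240 min. At 60 min *eas* (NCU08457) was at 232 and 243 FPKM, against 71.4 and 45.7 in the dark, *con-8* (NCU09235) at 492 and 680.5, against 33.8 and 42.7, *con-6* (NCU08769) at 3408 and 3456, against 13.8 and 3.36, and *con-10* (NCU07325) at 284 and 691, against 0.944 and 4.11. These genes are also known to respond to light, and their part in the changes given here was not tested. The replicates after 240 min stood apart from the others. They differed at least 2-fold for 44.9% of the 7688 genes tested, compared with between 5.40 and 7.93% at the other time points. Results that rest on them are therefore given with the values of both replicates, and the counts were repeated without them.

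All 26 genes had a mean FPKM above 1 at some time point and so entered the test. In the dark their mean FPKM lay between 7.56 for the glutamyl gene NCU00466 and 236 for NCU08888, the beta subunit of the phenylalanyl enzyme. As named, 11 of the genes encode class I and 14 class II enzymes.

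The transcript of one gene, NCU00915 for aspartyl-tRNA synthetase, was higher after light in both replicates at all of the times examined, and it was the only one of the 26 to pass the test in the model of all 10 samples without a replicate term. It rose after 60 and after 120 min. This was 1 of 26 genes in each comparison, with 2.68% of all tested genes called higher after 60 min and 1.37% after 120 min. None of the 26 was called lower at these times (background 3.55 and 3.59%). After 15 min none was called in either direction (background 1.34% higher and 0.442% lower), nor after 240 min (background 0.325% higher and 1.05% lower). At an unadjusted p under 0.05 the numbers were 0, 1, 3, and 2 of 26 after 15, 60, 120, and 240 min, beside 5.36, 18.7, 16.1, and 7.13% of all tested genes. A gene was called at an adjusted p of 0.2 or less in limma, fitted on log2(FPKM + 1) across all tested genes, which was the widest threshold used in the study. The same threshold was applied with the replicate number as a block, which takes out what a replicate's samples share, without the 240 min samples, and with both changes. More genes of the family passed in those models, as given in part with the genes and counted further on.

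**Figure D1:**
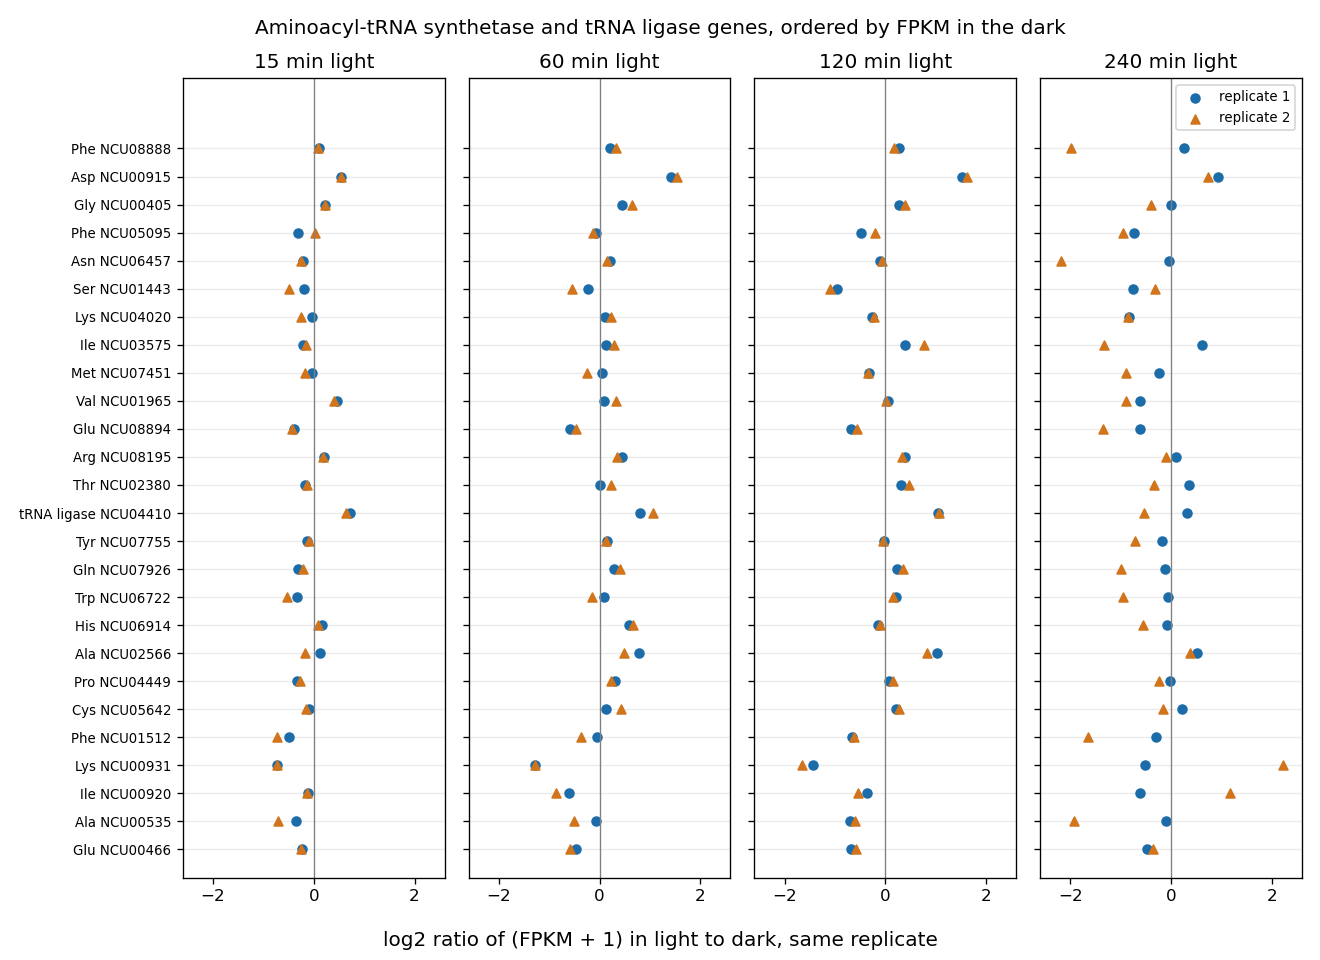
Change of each of the 26 genes after light. The log2 ratio of (FPKM + 1) in light to dark within the same replicate (horizontal axes, 1 panel per light time) is plotted for each gene (rows, ordered by mean dark FPKM with the highest on top). Circles are replicate 1 and triangles replicate 2. NCU00915 lies to the right at every time, the 5 genes with the lowest dark level lie to the left after 15, 60, and 120 min, and the replicates separate at 240 min.

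Most of the family was close to its dark level through 120 min. After 15 min 23 of the 26 genes were within 1.5-fold of the dark mean, as were 20 after 60 min and 17 each after 120 and 240 min. Among all tested genes 81.6, 57.1, 61.5, and 73.8% were within this range. The median log2 fold change of the 26 genes was −0.14 after 15 min, 0.17 after 60 min, 0.00 after 120 min, and −0.44 after 240 min, beside −0.05, −0.09, −0.07, and −0.14 for all tested genes. The sign of the median at 60 and 120 min depended on the scaling, with −0.22 and −0.14 after quantile normalization of the samples. After median scaling it was 0.37 and 0.12. It also depended on the selection of genes, with −0.29 and −0.63 for the 9 genes found by locus number. Without NCU04410 the median was 0.17 and −0.03.

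The plot of the change of each gene shows replicates that moved in parallel until 120 min. After 15 min 7 genes were higher and 17 lower than the dark in both replicates, against 35.1% and 44.8% of all tested genes. After 60 min 16 were higher and 8 lower (background 38.2 and 47.5%), and after 120 min 13 were higher and 13 lower (background 39.3 and 47.2%). Both light samples lay above both dark samples for 2 genes after 15 min, 9 after 60 min, and 6 after 120 min, and below them for 7, 4, and 8 genes. The background of these counts was 16.3, 25.4, and 22.7% above and 21.3, 31.7, and 30.5% below. The 26 genes thus included genes higher and genes lower than the dark at each time.

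The sum of FPKM over the 25 synthetase genes in replicates 1 and 2 was 2198 and 1862 in the dark, 2262 and 1846 after 15 min, 2866 and 2397 after 60 min, 2735 and 2260 after 120 min, and 2333 and 1299 after 240 min. In both replicates the sum was highest at 60 min, when the FPKM summed over all genes was highest too. The synthetase genes were 0.304 and 0.237% of that total after 60 min, against 0.385 and 0.255% in the dark. Without NCU00915 the sums were 1924 and 1673 in the dark, 2134 and 1845 after 60 min, and 1943 and 1680 after 120 min, so that at 120 min the other 24 genes together were near their dark level.

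Aspartyl-tRNA synthetase is a class II enzyme. The FPKM of NCU00915 in replicates 1 and 2 was 273 and 189 in the dark, 395 and 274 after 15 min, 732 and 552 after 60 min, 793 and 580.0 after 120 min, and 519.9 and 315 after 240 min. Every sample after light was above both dark samples, and every replicate 2 sample was below the replicate 1 sample of its time. The log2 fold change was 1.48 (SE 0.42, limma adjusted p = 0.19) after 60 min and 1.57 (SE 0.42, adjusted p = 0.17) after 120 min. It was 0.53 after 15 min (adjusted p = 0.72) and 0.83 after 240 min (adjusted p = 0.50), which did not pass the test. When the replicate number entered the model as a block, the adjusted p was 0.16, 0.016, 0.015, and 0.059 after 15, 60, 120, and 240 min.

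As a share of the summed FPKM of the synthetase genes, NCU00915 accounted for 29.0 and 25.7% after 120 min, against 12.4 and 10.1% in the dark. By mean FPKM it was below only the phenylalanyl beta gene in the dark and was the highest of the family after 60 and 120 min. The call without the block depended on single samples. When any 1 of the 8 samples other than those of 240 min was left out, the adjusted p lay between 0.34 and 0.74 at 60 min and between 0.31 and 0.72 at 120 min, and without 1 or both of the 240 min samples it lay between 0.024 and 0.032. Quantile normalization ended the call at both times, with a log2 fold change of 0.78 at 60 min (adjusted p = 0.52) and 1.37 at 120 min (adjusted p = 0.23), and omitting the filter on low values ended it at 60 min (adjusted p = 0.22).

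A further gene named for aspartyl-tRNA synthetase, NCU07082, was outside the selection and is listed by the study among genes chosen for their change, so its direction is not independent evidence. Its FPKM was 21.8 and 11.3 in the dark, 46.9 and 26.7 after 15 min, 75.8 and 43.5 after 60 min, 62.8 and 31.5 after 120 min, and 30.4 and 3.65 after 240 min. As for NCU00915, the samples of 15, 60, and 120 min were above both dark samples, but those of 240 min lay on either side of them. Its log2 fold change was 1.81 after 60 min and 1.45 after 120 min, and with all 10 samples these passed the test with the block (adjusted p = 0.081 and 0.13) and not without it. They also passed with no block when the 240 min samples were left out (adjusted p = 0.072 and 0.13). It remained the less abundant gene, at 7.93 and 5.43% of NCU00915 after 120 min and 7.96 and 5.97% in the dark.

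**Figure D2:**
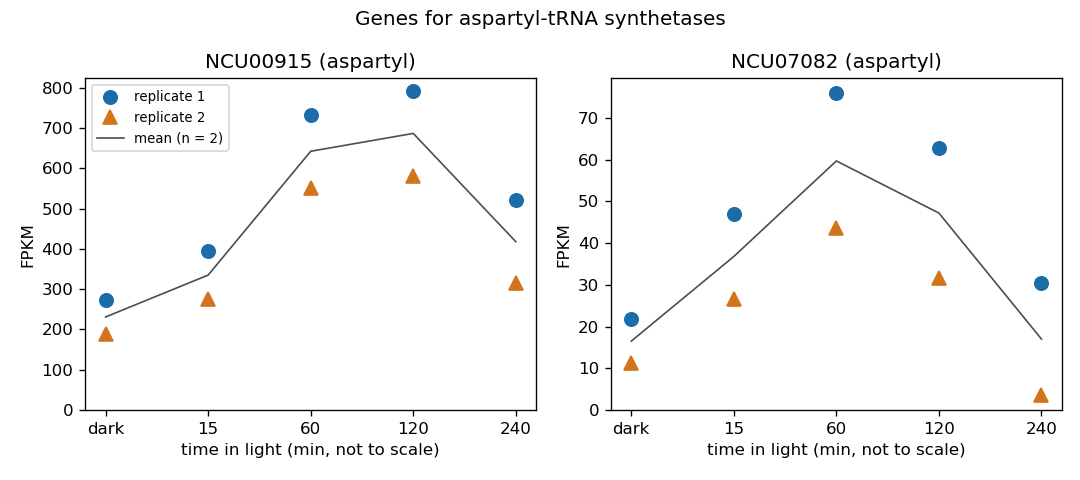
FPKM of the aspartyl genes NCU00915 (left) and NCU07082 (right) in each sample against the time in light (categories, not to scale). Circles are replicate 1, triangles replicate 2, and the line joins the means of both. NCU00915 reached 793 and 580.0 FPKM after 120 min, against 273 and 189 in the dark, and NCU07082 reached 75.8 and 43.5 FPKM after 60 min.

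The cytosolic phenylalanyl enzyme is encoded by NCU05095 (alpha) and NCU08888 (beta), which form 1 complex. NCU05095 had 122 and 193 FPKM in the dark, 98.6 and 198 after 15 min, 116 and 175 after 60 min, 86.9 and 167 after 120 min, and 73.4 and 98.7 after 240 min. NCU08888 had 230 and 243 FPKM in the dark, 249 and 258 after 15 min, 265 and 303 after 60 min, 279 and 273 after 120 min, and 276 and 60.8 after 240 min. The beta transcript was above both dark samples at 15, 60, and 120 min, while the alpha transcript overlapped its dark samples at these times. At 240 min the alpha transcript was below them, a change that passed the test with the block (adjusted p = 0.078) and not without it. With the block and without the 240 min samples NCU08888 was called higher after 60 and 120 min (adjusted p = 0.043 and 0.071). In that fit NCU05095 was called lower after 120 min (adjusted p = 0.044). The alpha to beta ratio was 0.531 and 0.796 in the dark and 0.312 and 0.612 after 120 min, and it was 0.266 and 1.62 in the 240 min samples, on opposite sides of the dark values.

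The third phenylalanyl gene, NCU01512, carries no subunit name. It had 16.2 and 33.4 FPKM in the dark, 11.2 and 19.7 after 15 min, 15.7 and 25.8 after 60 min, 9.84 and 21.5 after 120 min, and 13.0 and 9.91 after 240 min. It was the reverse of most genes of the family in that replicate 2 was the higher one until 120 min. In the models of all 10 samples it passed the test only at 240 min and with the block (adjusted p = 0.148). With the block and without the 240 min samples it was called lower after 15, 60, and 120 min (adjusted p = 0.0035, 0.17, and 0.0029).

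For 4 amino acids a low transcript and an abundant one were found, and the pairs could be compared within each sample. At 60 and 120 min the low transcript of the lysyl, isoleucyl, and alanyl pairs was a smaller share of the abundant one than in the dark in both replicates. The share of the glutamyl pair stayed close to that of the dark. The difference between 2 genes of a pair was not itself tested.

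The low lysyl gene, NCU00931, had 12.5 and 16.9 FPKM in the dark, 7.18 and 9.86 after 15 min, 4.59 and 6.37 after 60 min, 4.03 and 4.68 after 120 min, and 8.43 and 82.7 after 240 min. It was below both dark samples at 15, 60, and 120 min, with log2 fold changes of −0.72, −1.28, and −1.54. With all 10 samples, the divergent 240 min pair included, these did not pass the test with or without the block (smallest adjusted p = 0.24). Without the 240 min samples and with no block they were called lower at all of these times (adjusted p = 0.15, 0.032, and 0.018). The abundant lysyl gene, NCU04020, had 124 and 115 FPKM in the dark, 121 and 96.1 after 15 min, 134 and 135 after 60 min, 103 and 97.4 after 120 min, and 68.6 and 62.8 after 240 min. The share of the low gene was 3.43 and 4.72% after 60 min, against 10.1 and 14.7% in the dark. Both 240 min samples of NCU04020 were below all of its other samples. The log2 fold change of −0.85 passed the test with the block (adjusted p = 0.053) and not without it.

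The low isoleucyl gene, NCU00920, had 9.81 and 7.52 FPKM in the dark, 8.96 and 6.75 after 15 min, 6.07 and 3.70 after 60 min, 7.46 and 4.89 after 120 min, and 6.03 and 18.1 after 240 min. The abundant one, NCU03575, had 139 and 66.7 FPKM in the dark, 121 and 59.9 after 15 min, 153 and 81.9 after 60 min, 183 and 114 after 120 min, and 215 and 26 after 240 min. The low gene was below both dark samples at 60 and 120 min, and the abundant one was higher than the dark within each replicate at these times but overlapped it across replicates. The share was 4.08 and 4.28% after 120 min, against 7.03 and 11.3% in the dark. Neither gene, with all 10 samples, was called at any time, with or without the block. With the block and without the 240 min samples NCU00920 was called lower after 60 and 120 min (adjusted p = 0.0011 and 0.0097). In that fit NCU03575 was called lower after 15 min (adjusted p = 0.191) and higher after 60 and 120 min (adjusted p = 0.131 and 0.0037).

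The low alanyl gene, NCU00535, had 8.14 and 8.07 FPKM in the dark, 6.19 and 4.56 after 15 min, 7.68 and 5.37 after 60 min, 4.64 and 4.98 after 120 min, and 7.47 and 1.39 after 240 min. The abundant one, NCU02566, had 37.5 and 32.7 FPKM in the dark, 41.1 and 28.8 after 15 min, 65.7 and 45.9 after 60 min, 77.9 and 58.9 after 120 min, and 53.8 and 43.0 after 240 min. NCU00535 was below both of its dark samples at every light time, and NCU02566 above both of its own at 60, 120, and 240 min. The log2 fold change of NCU02566 was 0.64 after 60 min and 0.93 after 120 min, and with all 10 samples these passed the test with the block (adjusted p = 0.095 and 0.038) and not without it. They also passed with no block after median scaling, and at 120 min without the 240 min samples (adjusted p = 0.083), when NCU00535 was called lower as well (adjusted p = 0.15). The share of the low gene was 5.96 and 8.45% after 120 min, against 21.7 and 24.7% in the dark.

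Both glutamyl genes were lower than the dark in both replicates at every light time. NCU00466 had 9.01 and 6.12 FPKM in the dark, 7.45 and 4.93 after 15 min, 6.26 and 3.72 after 60 min, 5.28 and 3.75 after 120 min, and 6.19 and 4.52 after 240 min. NCU08894, the abundant one, had 75.3 and 64.7 FPKM in the dark, 56.8 and 47.6 after 15 min, 50.2 and 46.8 after 60 min, 46.8 and 43.4 after 120 min, and 49.1 and 24.9 after 240 min. All 8 light samples of NCU08894 were below both dark samples. The share of NCU00466 stayed between 7.95 and 13.1% until 120 min. With all 10 samples and the block NCU00466 passed the test after 60, 120, and 240 min (adjusted p = 0.082, 0.054, and 0.135), and NCU08894 only after 240 min (log2 fold change −0.97, adjusted p = 0.077), and without the block neither passed. Without the 240 min samples and with no block NCU08894 was called lower after 15, 60, and 120 min (adjusted p = 0.20, 0.12, and 0.077), and its change at 240 min passed after median scaling.

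**Figure D3:**
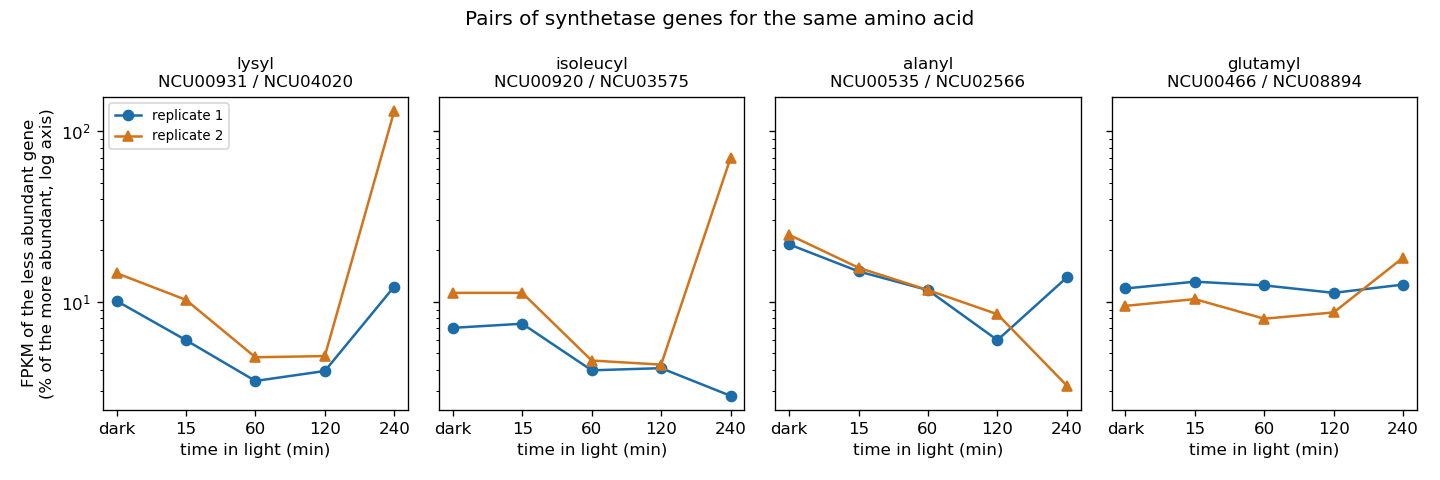
FPKM of the less abundant gene as a percentage of the more abundant gene for the same amino acid (vertical log axis) against the time in light, for the lysyl, isoleucyl, alanyl, and glutamyl pairs (panels). Circles are replicate 1 and triangles replicate 2. At 60 and 120 min both replicates are below their dark share in the first 3 panels, with 5.96 and 8.45% for the alanyl pair after 120 min, against 21.7 and 24.7% in the dark, and at 240 min the replicates part.

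The 5 genes with the lowest dark level were all lower than the dark in both replicates at 15, 60, and 120 min. Among all 26 genes 7 had this pattern (26.9%), which is close to the 29.5% of all tested genes. The other 2 were the glutamyl gene NCU08894 and the seryl gene NCU01443. The median log2 fold change of the 5 low genes was −0.53, −0.53, and −0.64 after 15, 60, and 120 min. They were found by locus number alone, and each was the least abundant of the genes for its amino acid. With all 10 samples none was called without the block. Without the 240 min samples and with no block 1, 1, and 2 of the 5 were called lower after 15, 60, and 120 min (background 8.29, 18.9, and 18.5%). In the fit with the block and without the 240 min samples all 5 were called lower at 60 and 120 min, where 43.1 and 40.9% of all tested genes were.

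Genes higher in both replicates at 15, 60, and 120 min numbered 6 of 26 (23.1%), near the 20.7% of all tested genes. These were NCU00915, the glycyl gene NCU00405, the valyl gene *un-3* (NCU01965), the arginyl gene NCU08195, the phenylalanyl beta gene NCU08888, and the tRNA ligase gene NCU04410. Of these only NCU00915 was also higher in both replicates at 240 min. None of the 5 low genes was among them.

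Within the selection serine and histidine each had a single gene, and these moved in different ways. A further seryl gene outside the selection, NCU09594, is given near the end. The seryl gene *ser-8* (NCU01443) had 166 and 132 FPKM in the dark, 144 and 94.3 after 15 min, 141 and 90.6 after 60 min, 85.1 and 61.4 after 120 min, and 98.2 and 106 after 240 min. Both replicates were at their lowest at 120 min, when the log2 fold change was −1.02 (adjusted p = 0.33, 0.060 with the block, and 0.099 with no block and without the 240 min samples). The histidyl gene NCU06914 had 45.6 and 37.9 FPKM in the dark, 51.1 and 40.0 after 15 min, 68.9 and 60.8 after 60 min, 41.2 and 35.0 after 120 min, and 43.3 and 25.4 after 240 min. Its higher level was limited to 60 min, when both samples were above all others, with a log2 fold change of 0.63. It passed the test with the block (adjusted p = 0.131), and with no block when the 240 min samples were left out (adjusted p = 0.111).

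The valyl gene *un-3*, also known as *cyt-20* and the source of both the cytosolic and the mitochondrial enzyme, had 96.3 and 65.1 FPKM in the dark, 134 and 86.5 after 15 min, 103 and 81.8 after 60 min, 100.0 and 65.8 after 120 min, and 62.2 and 34.3 after 240 min. It was highest at 15 min and lowest at 240 min in both replicates. The methionyl gene NCU07451 had 97.4 and 86.2 FPKM in the dark, 94.9 and 76.3 after 15 min, 100.3 and 72.4 after 60 min, 77.8 and 67.5 after 120 min, and 82.3 and 46.0 after 240 min. With all 10 samples both genes passed the test only at 240 min and with the block (adjusted p = 0.078 for *un-3* and 0.194 for NCU07451), in the direction of lower. With the block and without the 240 min samples *un-3* was called higher after 15 and 60 min (adjusted p = 0.0075 and 0.099). NCU07451 was called lower after 120 min in that fit (adjusted p = 0.021).

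The tRNA ligase gene NCU04410 had 75.5 and 30.4 FPKM in the dark, 126 and 48.2 after 15 min, 133 and 64.2 after 60 min, 157 and 64.7 after 120 min, and 94.4 and 20.6 after 240 min. Within each replicate it was higher at 15, 60, and 120 min, but replicate 2 was more than 2-fold below replicate 1 at every time, and the light and dark samples overlapped. The log2 fold changes of 0.93 after 60 min and 1.05 after 120 min passed the test with the block (adjusted p = 0.111 and 0.083) but not without it, nor with no block when the 240 min samples were left out (adjusted p = 0.48 and 0.41).

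The remaining 9 genes, for glycine, threonine, proline, cysteine, asparagine, tryptophan (*trp-5*), tyrosine, glutamine, and arginine, changed little through 120 min. Their log2 fold changes lay between −0.44 and 0.22 after 15 min, −0.03 and 0.55 after 60 min, and −0.08 and 0.38 after 120 min. At 240 min they lay between −1.12, for the asparaginyl gene NCU06457, and 0.03. With all 10 samples none passed the test without the block (smallest adjusted p = 0.58), and with it only the glycyl gene NCU00405 did, after 60 min (adjusted p = 0.197). Without the 240 min samples and with no block none was called. With the block and without these samples each of the 9 was called at some time, in either direction. The share of all tested genes called at any time in either direction was not computed, so this count has no background. Among the 9 genes NCU00405 and NCU08195 were higher after 60 min (adjusted p = 0.0020 and 0.0043), and *trp-5* was lower after 15 min (adjusted p = 0.0060). In that fit 34.9% of all tested genes were called higher after 60 min, and 34.2% lower after 15 min.

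With the replicate block the number of the 26 genes called was 1 higher and 0 lower after 15 min (background 6.87 and 8.32%), 5 higher and 1 lower after 60 min (14.4 and 22.1%), 3 higher and 2 lower after 120 min (11.6 and 19.5%), and 1 higher and 7 lower after 240 min (5.11 and 15%). The 5 genes called higher after 60 min were NCU00915, NCU02566, NCU04410, NCU06914, and NCU00405. The share of the 26 genes called lower was below the background at 15, 60, and 120 min and above it at 240 min. Without the 240 min samples and with no block, 0 genes were called higher and 2 lower after 15 min (background 7.62 and 8.29%), 2 higher and 2 lower after 60 min (15.9 and 18.9%), and 2 higher and 4 lower after 120 min (13.8 and 18.5%). With the block and without these samples 5 were called higher and 12 lower after 15 min (26.8 and 34.2%), 15 higher and 7 lower after 60 min (34.9 and 43.1%), and 11 higher and 10 lower after 120 min (33.5 and 40.9%).

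After 240 min the replicates differed at least 2-fold in 11 of the 26 genes (42.3%), close to the 44.9% of all tested genes. This compares with 3 in the dark, 1 after 15 min, 1 after 60 min, and 2 after 120 min. Replicate 2 was below replicate 1 for 22 genes at 240 min and for between 20 and 21 at the other times. These were not the same genes throughout. NCU00920 and NCU01443 were higher in replicate 2 only at 240 min. NCU01512 and NCU07755 were higher in replicate 2 until 120 min and lower in it at 240 min. The widest gaps were in the lysyl gene NCU00931, at 8.43 and 82.7 FPKM in replicates 1 and 2, and in the isoleucyl gene NCU03575, at 215 and 26 FPKM. The asparaginyl gene NCU06457, given here because of its gap, had 160 and 29.8 FPKM at 240 min, against 166 and 140 FPKM in the dark.

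For 2 amino acids the low gene came close to or above the abundant one in replicate 2 only at 240 min. The low lysyl gene was at 132% of the abundant one and the low isoleucyl gene at 69.7%, while in replicate 1 these shares were 12.3 and 2.81%. The alanyl pair went the other way, with 3.22% in replicate 2 and 13.9% in replicate 1. In the same 240 min samples the 4 conidial genes examined did not differ in a single direction. In replicate 2 *con-8* (NCU09235) and *con-6* (NCU08769) were lower, at 16.6 and 10.2 FPKM, against 378 and 98.3 in replicate 1. *con-10* (NCU07325) was higher, at 15.2 against 4.26, and *eas* was at 69.2 against 87.0. The part of conidial genes in these differences was not tested.

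**Figure D4:**
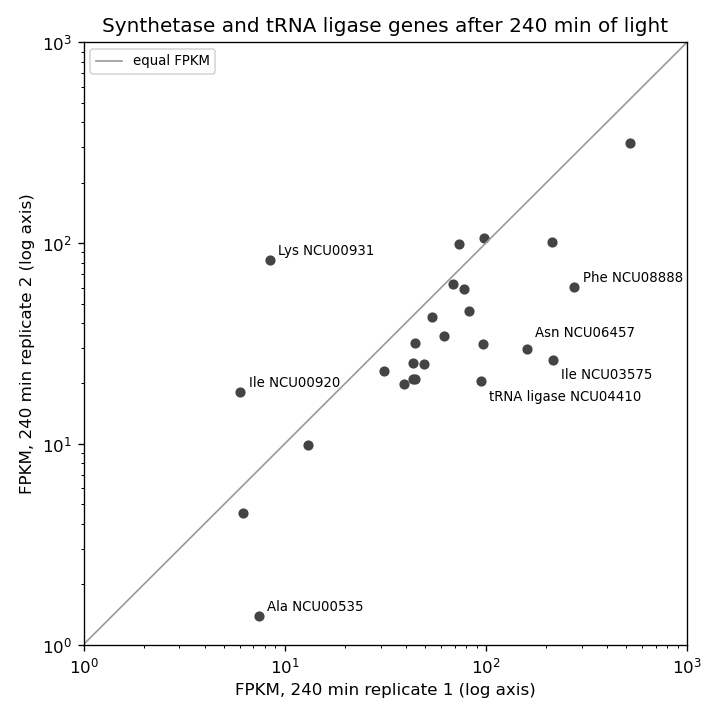
FPKM of the 26 genes in 240 min replicate 1 (horizontal log axis) against 240 min replicate 2 (vertical log axis), 1 point per gene, with the line of equal FPKM. The lysyl gene NCU00931 (8.43 and 82.7 FPKM) and the isoleucyl gene NCU00920 (6.03 and 18.1) lie above the line, and NCU03575, NCU06457, NCU08888, NCU04410, and NCU00535 lie farthest below it.

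Only 2 of the 26 genes were above both of their dark samples at 240 min, NCU00915 and NCU02566, and 9 were below them (background 7.48 and 17.5%). Both 240 min samples were lower than the dark of their replicate in 15 genes and higher in 2 (background 32 and 15.2%). The median log2 ratio to the dark was −0.64 in replicate 2 and −0.09 in replicate 1, beside −0.26 and −0.04 for all tested genes.

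In the gene order of the RefSeq annotation of assembly NC12, the aspartyl gene NCU00915, the low isoleucyl gene NCU00920, and the low lysyl gene NCU00931 lie near each other on chromosome I. Between NCU00915 and NCU00920 there are 4 protein-coding genes, and between NCU00920 and NCU00931 there are 11. NCU00915 was higher and the other pair lower than the dark at 15, 60, and 120 min in both replicates.

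Genes of the family outside the selection included 7 that were known by name, of which all but *leu-6* come from lists that the study chose for their change, so their direction is not independent evidence. The tryptophanyl gene NCU11834 was called lower after 60 min (log2 fold change −1.05, adjusted p = 0.19) and after 120 min (−1.47, adjusted p = 0.094). Its FPKM was 6.81 and 6.05 after 60 min and 5.07 and 4.07 after 120 min, against 13.6 and 15.1 in the dark. The other tryptophanyl gene, *trp-5*, had 52.8 and 46.6 FPKM after 120 min and 45.5 and 41.6 FPKM in the dark.

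The mitochondrial enzymes of known identity in this group were those of *cyt-18* (NCU03030), the tyrosyl enzyme that also takes part in splicing of mitochondrial introns, and *leu-5* (NCU03814), the leucyl enzyme. *cyt-18* had 2.80 and 1.63 FPKM after 60 min and 3.26 and 1.64 after 120 min, against 8.32 and 4.35 in the dark. *leu-5* had 4.71 and 2.29 FPKM after 60 min and 3.06 and 1.23 after 120 min, against 13.2 and 5.03 in the dark. For both genes the light samples were below both dark samples at these times, and with all 10 samples the change passed the test with the block and not without it (adjusted p after 60 and 120 min 0.019 and 0.023 for *cyt-18*, 0.078 and 0.031 for *leu-5*). With no block, *cyt-18* passed without the 240 min samples at both times (adjusted p = 0.13 and 0.15) and *leu-5* after 120 min (adjusted p = 0.14). The cytosolic leucyl gene *leu-6* (NCU09463) had 96.4 and 82.3 FPKM after 120 min and 83.0 and 71.6 FPKM in the dark. The seryl gene NCU09594 had 4.90 and 4.29 FPKM after 120 min, against 11 and 9.23 in the dark, and the methionyl gene NCU03759 had 8.70 and 5.50, against 14.8 and 11.2. With all 10 samples both passed the test after 120 min with the block (adjusted p = 0.196 and 0.059) and not without it. They also passed then with no block when the 240 min samples were left out (adjusted p = 0.034 and 0.199).

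In *N. crassa* amino acid limitation acts on biosynthetic genes through the transcription factor *cpc-1* and the kinase *cpc-3*, which senses uncharged tRNA. The FPKM of *cpc-1* (NCU04050) was 448 and 440.2 in the dark, 609 and 644 after 15 min, 603 and 835 after 60 min, 630.4 and 582 after 120 min, and 420.3 and 349.6 after 240 min. It was above the dark in both replicates at 15, 60, and 120 min and below it at 240 min. *cpc-3* (NCU01187) had 25.9 and 12.4 FPKM after 60 min and 26.2 and 14.7 after 120 min, against 9.74 and 5.33 in the dark. After 240 min *cpc-3* had 22.4 and 7.01 FPKM. Neither passed the test in the model of all 10 samples without the block. With it *cpc-1* passed after 60 min (adjusted p = 0.147) and *cpc-3* after 60, 120, and 240 min (adjusted p = 0.034, 0.028, and 0.110). With no block and the 240 min samples left out, *cpc-1* passed after 15 and 60 min (adjusted p = 0.19 and 0.090) and *cpc-3* after 60 and 120 min (adjusted p = 0.20 and 0.16).

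Other genes of protein synthesis were taken as lists. The lists came from the same shortened tables, so part of their genes were also selected for a high level in the dark. Of 33 translation factors none was called after 15 min (background 1.34% higher and 0.442% lower). With the block 2 were called lower then (background 8.32%) and none higher (6.87%). After 60, 120, and 240 min 1, 2, and 2 of the 33 were called lower (background 3.55, 3.59, and 1.05%) and none higher. Their median log2 fold change was −0.50, −0.66, and −0.61. With the block 11, 15, and 15 of the 33 were called lower (background 22.1, 19.5, and 15%) and 1, 0, and 0 higher (14.4, 11.6, and 5.11%). Of 10 genes for tRNA processing and modification none was called. With the block 5 of the 10 were called lower at 60 min and 5 lower and 1 higher at 120 min, against the same backgrounds. At 15 and 240 min 1 and 2 were called lower with it (background 8.32 and 15%) and none higher. Of 65 genes for amino acid biosynthesis 4 were called higher and 4 lower after 60 min (background 2.68 and 3.55%), and 1 higher and 6 lower after 120 min (1.37 and 3.59%). After 15 and after 240 min 2 were called lower (background 0.442 and 1.05%) and none higher. With the block 3 were called higher and 7 lower after 15 min (background 6.87 and 8.32%). It gave 13 higher and 12 lower after 60 min (14.4 and 22.1%), and 8 higher and 19 lower after 120 min (11.6 and 19.5%). After 240 min it gave 0 higher and 19 lower (5.11 and 15%).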

How the data were processed

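RNA-seq of 10 mycelial samples was analysed, with groups and replicate numbers taken from the sample titles. The authors aligned reads to assembly 10 with TopHat2 2.0.5 and computed FPKM with Cuffdiff, separately for each replicate's time course and with bias and multiple-read correction. The deposited FPKM values are scaled for library size, so the number of reads behind a value cannot be recovered from them. Precision therefore comes from 2 replicates only (median SE of a log2 fold change 0.435), and p-values measure the spread between these samples.

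The 7688 genes with a mean FPKM above 1 at any time point were fitted in limma 3.58.1 (R 4.3.3) on log2(FPKM + 1), with a pseudocount of 1, an intensity trend, and 1 mean per time point. Fold changes are on this scale, which understates changes of low genes. The p-values were adjusted by Benjamini-Hochberg over the 4 light comparisons together, and the threshold was 0.2. The script was tested on simulated data.

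Samples with the same replicate number, which the titles give and which were run as separate time courses, deviated together. The correlation of their deviations was between 0.334 and 0.841 over 10 pairs of time points, and at least 0.760 without 240 min. The replicate block was run as an alternative and is given beside each result whose call it changes. Other alternatives were the pseudocount, the filter, 2 scalings, the threshold, the selection of genes, and leaving out samples.

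The genes, lists, and tests were chosen with earlier results of these data known. Values in every sample are given for genes called in either fit (at most 12), for genes that share an amino acid, and for the 2 that differed most between the 240 min replicates. All 26 genes matched protein-coding genes of the RefSeq table of assembly NC12 by locus. Since the deposited values use assembly 10, no coordinates are given. Sequences were not used here.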

Additional observations from a re-analysis of the deposited data

How the results depend on the processing

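With 2 samples per group no sample could be tested as an outlier, and the small number of replicates limited every call. The number of the 26 genes called without the block was 0, 1, 1, and 0 after 15, 60, 120, and 240 min. With the replicate block, which pairs samples by replicate number, it was 1, 6, 5, and 8. Without the 240 min samples it was 2, 4, and 6 after 15, 60, and 120 min, and with the block as well, an alternative chosen after seeing the data, it was 17, 22, and 21. The shares of all tested genes for these fits are given above. In the last fit they were 26.8, 34.9, and 33.5% called higher and 34.2, 43.1, and 40.9% called lower. For the alternatives that follow this share was not computed, so their counts have no background. Median scaling gave 3, 2, and 2 after 60, 120, and 240 min. At 60 min the count was 0 without a filter on low values and 0 after quantile normalization, which at 120 min called NCU01443 and no longer NCU00915, and at a threshold of 0.05 it was 0 after 60 and 120 min. Leaving out single samples gave between 0 and 2 genes after 15 min, 0 and 6 after 60 min, 0 and 6 after 120 min, and 0 and 14 after 240 min. The highest counts came without 240 min replicate 1 (at 120 min without either 240 min sample), and the count fell to 0 at 60 and 120 min without any 1 of the 8 samples of the other times. Direction was reversed for NCU08888 after 120 min under quantile normalization (log2 fold change −0.027) and for NCU05095 after 120 min without 120 min replicate 1 (0.12, against −0.81 without 120 min replicate 2, the ends of its range). Leaving out NCU04410 or keeping only the 9 genes found by locus number left the counts without the block as they were. Where no cause is named, the cause was not tested.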

Other observations

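Both structural classes of the synthetases held genes that were higher and genes that were lower than the dark. The median log2 fold change of the 11 class I genes was −0.13, 0.13, 0.04, and −0.45 after 15, 60, 120, and 240 min. For the 14 class II genes it was −0.15, 0.17, −0.10, and −0.43. The lowest and the highest change at 60 and 120 min were both in class II, in the lysyl gene NCU00931 (−1.28 and −1.54) and the aspartyl gene NCU00915 (1.48 and 1.57). No difference between the classes was tested.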
